A study of Sus scrofa with 5 samples.

Results

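Venous or capillary-type endothelial nuclei were sought in single-nucleus RNA profiles of the pig abdominal aorta, and 281 of 45505 nuclei met the definition. A nucleus needed at least 300 detected genes and at least 1 UMI (a count of 1 captured RNA molecule) of at least 3 of the endothelial genes PECAM1, VWF, CDH5, PTPRB, TEK, ERG, EGFL7 and TIE1. It could hold no UMI of the lymphatic endothelial genes PROX1 and RELN. It also had to hold more genes of a venous and capillary panel (ACKR1, SELP, SELE, PLVAP, CA4, RGCC, TLL1 and NR2F2) than of an arterial panel (GJA5, GJA4, EFNB2, SEMA3G, BMX, HEY1, SOX17 and DKK2). SELE had no row of that name in the files, so 7 of the 8 venous and capillary genes were used. These nuclei are called panel nuclei here, because in 1 pig most of them did not carry the markers of the cell type they were meant to be. The nuclei were chosen by the UMI counts of these 26 rule genes, whose values are given as a description, with no test.

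The obese group was 3 castrated male Ossabaw pigs on an HF/HFru diet, and the control group was 2 castrated male Ossabaw pigs on chow. All pigs were 12 months old when the diets began. The labels disagree on how long the diets lasted, with 6 months under the treatment and 9 months in the design text. Each library came from the frozen aorta of 1 pig, from which nuclei were sorted by flow cytometry on the DNA dye DRAQ5 and captured in droplets (10x Genomics). Obese replicates 1 to 3 gave 7609, 10106 and 9811 nuclei from 22400089, 35655806 and 29717314 UMIs, while 12282 and 5697 nuclei came from 47724416 and 21516249 UMIs of control replicates 1 and 2.

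The wall of a large artery holds several kinds of endothelium. The arterial lining faces the lumen, while the vasa vasorum, the small vessels that feed the outer wall, bring capillaries and venules. Venules are the vessels through which leukocytes leave the blood. Their endothelium is known for ACKR1, an atypical chemokine receptor, and for SELP, the adhesion molecule P-selectin, and its identity is set in part by the transcription factor NR2F2. PLVAP forms the diaphragms of fenestrae and caveolae in capillaries and venules.

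The endothelial part of the rule was met by 1340 nuclei, of which 281 (21.0%) were panel nuclei, 654 held more arterial than venous or capillary genes (arterial-type nuclei) and 405 held equal numbers of both, 292 of these with no panel gene at all. Obese replicates 1, 2 and 3 gave 37, 154 and 20 panel nuclei, and control replicates 1 and 2 gave 56 and 14. Obese replicate 2 therefore supplied 54.8% of the panel nuclei and 69.9% of their UMIs. The median panel nucleus of obese replicates 1 to 3 held 2687, 8152.5 and 3596 UMIs, against 4396 and 2920 UMIs for control replicates 1 and 2. Libraries shared 198 barcodes over all nuclei, and 4 panel nuclei had a barcode that another library also held, although no barcode occurred in the panel nuclei of 2 libraries. Mitochondrial UMIs were at most 0.104% of any panel nucleus.

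Most panel nuclei of obese replicate 2 carried macrophage markers. Of 10 macrophage genes and the leukocyte gene PTPRC, 2 or more were detected in 101 of its 154 panel nuclei, which is 65.6% (57.5% to 73.0%, exact binomial interval). The same held for 6 of 37 panel nuclei in obese replicate 1, 2 of 20 in obese replicate 3, none of 56 in control replicate 1 and 1 of 14 in control replicate 2. A count of 0 of 56 allows a share of up to 6.38% by the exact binomial interval. Summed over the 10 macrophage genes, the panel nuclei had 403, 2609 and 190 CPM (a gene's UMIs scaled to a fixed library total) in obese replicates 1 to 3, against 3.21 and 50.9 CPM in control replicates 1 and 2. Of the 10 macrophage genes, 6, 10 and 5 were detected in the panel nuclei of obese replicates 1 to 3, against 1 in each control pig, and the macrophage level was higher in every obese pig than in either control pig. The macrophage genes summed to 44.8, 79.2 and 0 CPM in the panel nuclei of obese pigs that held at most 1 of the 11 markers, against 3.21 and 0 CPM in those of control pigs.

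The 101 nuclei passed the endothelial rule mainly through PECAM1, TEK, PTPRB and ERG. PECAM1, an adhesion molecule that leukocytes also carry, was detected in 94 of them, the angiopoietin receptor gene TEK in 84, the phosphatase gene PTPRB in 67 and the transcription factor gene ERG in 53. CDH5, the cadherin of endothelial junctions, was detected in 1, VWF, which encodes von Willebrand factor, in 13, ACKR1 in 1, PLVAP in 5 and SELP in none. RGCC, a cell cycle regulator, was detected in 75 and TLL1, a metalloprotease gene, in 53, and these brought most of them into the panel. In the other 53 panel nuclei of the same pig, CDH5 was detected in 16, VWF in 31, PLVAP in 20, NR2F2 in 22, ACKR1 in 10 and SELP in 6, while RGCC was detected in 9. CDH5, VWF, ACKR1 and PLVAP were thus all more frequent in the smaller set, although its median depth was 3484 UMIs, against 11013 UMIs in the 101 nuclei.

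**Figure D1:**
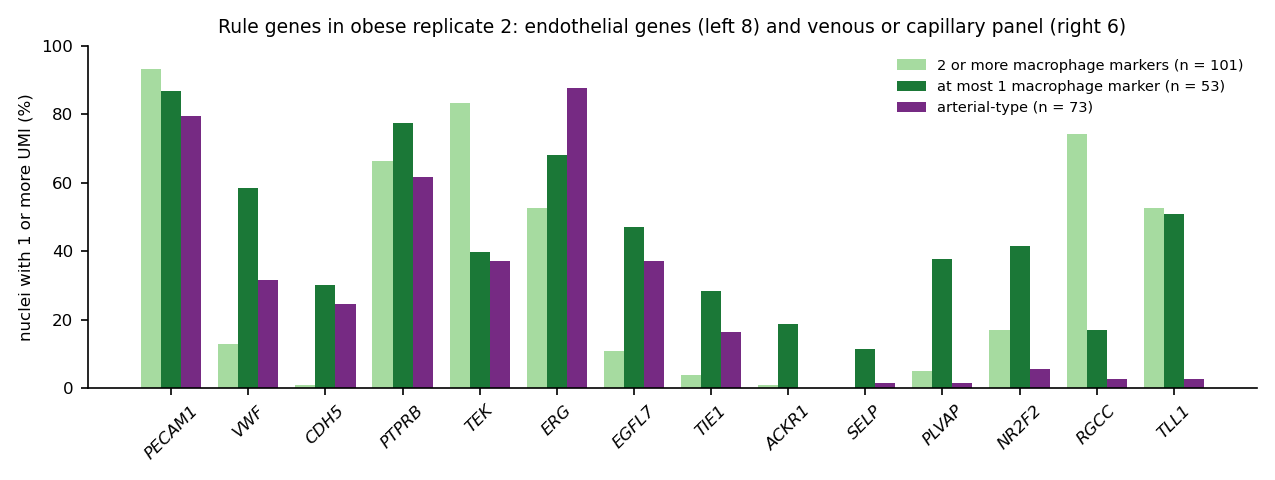
Share of nuclei with at least 1 UMI (vertical axis, percent) of each rule gene in obese replicate 2, for panel nuclei with 2 or more macrophage markers (n = 101), panel nuclei with at most 1 (n = 53) and arterial-type nuclei (n = 73). CDH5, ACKR1, SELP and PLVAP were near 0 in the first set, while RGCC was far more frequent there than in the other 2 sets.

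Genes outside the rule separated the sets of obese replicate 2 in the same way. ATP6V0D2, a proton pump subunit known from osteoclasts and macrophages, had 814 CPM in the nuclei with 2 or more macrophage markers and no UMI in those with at most 1. SYK, a kinase of immune receptors, had 363 CPM and SPI1, the myeloid transcription factor PU.1, had 136 CPM, against no UMI of either. LDB2, a transcription cofactor, had 43.5 CPM, against 4133 CPM in the nuclei with at most 1 macrophage marker. AQP1, a water channel of endothelium, had no UMI, against 101 CPM. These genes were chosen after their values were seen. For this reason the results below are given for all panel nuclei and again for the 171 panel nuclei with at most 1 macrophage or leukocyte marker (31, 53 and 18 in obese replicates 1 to 3, 56 and 13 in control replicates 1 and 2), a restriction chosen after the values were seen. Their median depths were 2355, 3484 and 3596 UMIs in obese pigs, and 4396 and 2619 UMIs in control pigs.

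Markers of the other main cell types of the wall were also present, and the smooth muscle sum was above the macrophage sum in all pigs but obese replicate 2. Smooth muscle markers summed to 2045, 865 and 1103 CPM in the panel nuclei of obese replicates 1 to 3, against 1599 and 2529 CPM in control replicates 1 and 2, and the groups overlapped. Fibroblast markers summed to 221, 133 and 100 CPM in obese replicates 1 to 3, against 517 and 492 CPM in control replicates 1 and 2, so every obese pig was below both control pigs. Pericyte markers summed to 221, 78.8 and 120 CPM, against 202 and 373 CPM in the control pigs. B or plasma cell markers summed to 60.1 to 456 CPM in obese pigs, against 38.5 to 102 CPM in control pigs. Schwann cell markers summed to 0 to 203 CPM, against 0 to 12.8 CPM. In the restricted nuclei these sums were 44.3 to 101 CPM against 38.5 to 40.5 CPM, and 0 to 55.3 CPM against 0 to 12.8 CPM. The part of RNA of these other cell types in the values below was not tested.

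In the 171 restricted nuclei, every obese pig was above both control pigs for 3 of the 8 endothelial rule genes, VWF, ERG and CDH5. The 8 genes were used to choose the nuclei, so their order between the groups is a description only. PECAM1, PTPRB, TEK, EGFL7 and TIE1 overlapped between the groups. Of the 2359 genes tested in these nuclei, 12.6% had every obese pig above both control pigs. PECAM1 had 1131, 1074 and 963 CPM in obese replicates 1 to 3, against 1098 and 891 CPM in control replicates 1 and 2. PTPRB had 482, 660 and 664 CPM in obese pigs, against 745 and 628 CPM in control pigs. ERG had 1053, 1052 and 1195 CPM in obese pigs, against 867 and 608 CPM in control pigs. VWF had 616, 493 and 786 CPM in obese pigs, against 206 and 203 CPM in control pigs. The obese pigs thus did not overlap the control pigs for ERG and VWF, nor for CDH5, with 134, 106 and 111 CPM in obese pigs and 70.6 and 40.5 CPM in control pigs. The CDH5 level of control replicate 2 came from 2 UMIs. With all panel nuclei the groups overlapped for these 3 genes. Obese replicate 2 then had 89.9 CPM of VWF, 300.1 CPM of ERG and 17.3 CPM of CDH5, and for ERG obese replicate 1 (753 CPM) was also below control replicate 1 (867 CPM). In arterial-type nuclei, which the same 8 genes helped to choose, VWF had 58.3, 142 and 146 CPM in obese pigs, against 7.09 and 18.9 CPM in control pigs.

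The panel genes were uneven between pigs. SELP was undetected in the restricted nuclei of obese replicate 1 and had 145 and 321 CPM in obese replicates 2 and 3, against 16.1 and 810 CPM in control replicates 1 and 2. ACKR1 had 22.4, 70.4 and 11.1 CPM in obese pigs, against 19.3 and 40.5 CPM in control pigs. PLVAP had 314, 216 and 77.5 CPM in obese pigs, against 116 and 162 CPM in control pigs, and NR2F2 had 67.2, 150 and 44.3 CPM, against 64.2 and 60.8 CPM. The groups overlapped for all 4 genes. TLL1 ranged between 302 and 850 CPM over the 5 pigs, and RGCC between 101 and 482 CPM. CA4, a carbonic anhydrase of capillaries, was detected in 2 of the restricted nuclei.

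Most panel nuclei rested on few UMIs of the panel. Of the 281, 154 held exactly 1 panel gene, 127 held 2 or more and 34 held 3 or more. TLL1 was found in 138, RGCC in 134, NR2F2 in 66, PLVAP in 64, SELP in 23, ACKR1 in 22 and CA4 in 3, and 143 held RGCC or TLL1 and none of the other 5. Of the 171 restricted nuclei, 115 held ACKR1, SELP, PLVAP or NR2F2. In nuclei with none of the 8 endothelial genes, the share with a UMI was 0.0306% to 0.188% for ACKR1, 0.0704% to 0.341% for SELP and 0.262% to 0.551% for PLVAP over the 5 libraries. It was higher there for NR2F2 (4.36% to 8.47%), RGCC (2.59% to 7.39%) and TLL1 (0.866% to 4.50%), at median depths of 1240.5 to 1885 UMIs. ACKR1, SELP and PLVAP were thus nearly absent outside the endothelium, and RGCC, TLL1 and NR2F2 were not.

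At the threshold, 187 panel nuclei led by 1 panel gene and 94 by 2 or more, with median depths of 5415 and 5698 UMIs. Just outside were 113 nuclei with equal numbers of venous or capillary and arterial genes (median 6450 UMIs) and 283 with 1 more arterial gene (median 5959 UMIs). Pooled over pigs, the share with 2 or more macrophage markers was 40.1% at a lead of 1 and 37.2% at a lead of 2 or more. It was 22.1% of the 113 nuclei with equal numbers and 4.95% of those with 1 more arterial gene. In obese replicate 2 these shares were 69.7%, 58.2%, 54.1% and 21.3%, in the same order. Of its endothelial-rule nuclei with no panel gene, 46.7% held 2 or more macrophage markers. Of the 8 endothelial genes, panel nuclei held 3.92 on average, the restricted ones 4.35 and arterial-type nuclei 4.81.

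The restricted nuclei were split by the panel genes they held, a description made after the values were seen and pooled over the 5 pigs. The first class, 38 nuclei, held ACKR1 or SELP, and numbered 2, 14 and 8 in obese replicates 1 to 3 and 10 and 4 in control replicates 1 and 2. The next, 77 nuclei, held PLVAP or NR2F2 without those genes, and the last, 56 nuclei, held RGCC, TLL1 or CA4 alone. Median depths were 3852, 3488 and 3071.5 UMIs in this order. ACKR1 and SELP occurred together in 5 nuclei, and 12 of the 38 also held PLVAP.

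Venous genes outside the rule were divided over the classes. Of 16, 8 were most frequent in the ACKR1 or SELP class, 7 were not and 1 was undetected. The same count was not made over all genes, and this class also had the highest median depth. VCAM1, the adhesion molecule that holds leukocytes on inflamed endothelium, was detected in 15 of 38, against 1 of 77 and 1 of 56 in the other classes. The 15 came from obese replicates 2 and 3 (7 and 4 nuclei) and control replicates 1 and 2 (2 nuclei each), so 4 of the 5 pigs showed it. IL6, the cytokine interleukin-6, was detected in 10 of 38, against 3 of 77 and 3 of 56, with 9 of the 10 nuclei from obese pigs (1, 5 and 3) and 1 from control replicate 2. ADGRG6, an adhesion G protein-coupled receptor, was detected in 16 of 38, against 9 of 77 and 5 of 56, including nuclei of all 5 pigs. On the other side ZNF385D, a zinc finger gene, was detected in 6 of 38, against 31 of 77 and 15 of 56, CPE in 5 of 38, against 19 of 77 and 15 of 56, and MCTP1 in 11 of 38, against 26 of 77 and 23 of 56. IL6 is not on the venous list, nor is DCC, a netrin receptor, which was detected in 15 of 38, against 6 of 77 and 7 of 56.

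VWF was detected in 28 of the 38 ACKR1 or SELP nuclei, against 38 of 77 and 24 of 56. Stanniocalcin (STC1) was detected in 21 of 38, against 20 of 77 and 9 of 56, and the sialomucin endomucin (EMCN) in 21 of 38, against 28 of 77 and 11 of 56. IL1R1, the interleukin-1 receptor, had 2328 CPM in the first class, against 856 and 1106 CPM in the others. Capillary genes were divided likewise, with 8 of 19 most frequent in the ACKR1 or SELP class, 7 not and 4 undetected. AQP1, a water channel, was detected in 13 of 38, against 10 of 77 and 5 of 56, and FLT1, a VEGF receptor, in 32 of 38, against 50 of 77 and 24 of 56. COL15A1, a collagen of basement membranes, was detected in 7 of 38, against 31 of 77 and 22 of 56. GPIHBP1, which holds lipoprotein lipase on capillary endothelium, was detected in none of 38, 5 of 77 and none of 56. A count of 0 does not show absence at this depth. PECAM1 and ERG were at like frequencies in the 3 classes, with PECAM1 in 37 of 38, 65 of 77 and 48 of 56.

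**Figure D2:**
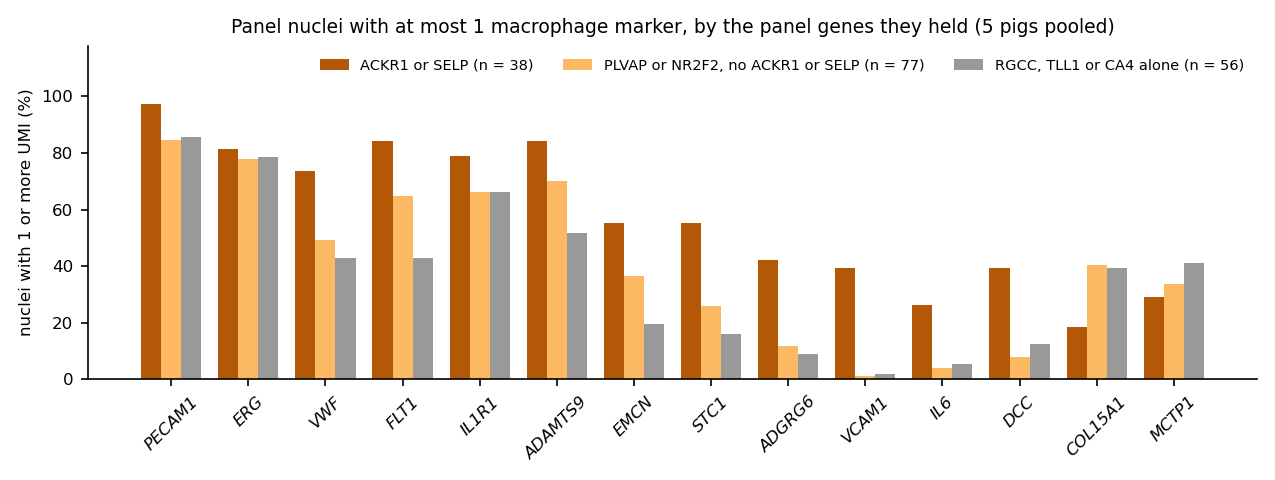
Share of nuclei with at least 1 UMI (vertical axis, percent) of 14 genes in panel nuclei with at most 1 macrophage marker, split by the panel genes they held and pooled over 5 pigs. VCAM1, IL6, ADGRG6 and DCC were most frequent among the 38 nuclei with ACKR1 or SELP, and COL15A1 was least frequent there.

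Against the arterial-type nuclei of the same pigs, the restricted panel nuclei had genes that were higher or lower in every pig. The arterial-type nuclei were not restricted by macrophage markers. In obese replicates 1 and 2, 8 of 62 and 12 of 73 of them held 2 or more such markers, and none did in the other pigs. No test was made, because the rule split the nuclei by their genes. Of 3673 genes at 50 CPM or more in either type, 277 were higher and 320 lower in the panel nuclei of all 5 pigs. IL6 had the highest mean log2 ratio (4.81, SD 2.30 over 5 pigs), with 78.4, 211, 77.5, 9.63 and 60.8 CPM in the panel nuclei of obese replicates 1 to 3 and control replicates 1 and 2, against 0, 0, 4.31, 2.13 and 2.02 CPM in arterial-type nuclei. MEOX2, a homeobox gene of vascular endothelium, had 482, 326, 88.5, 209 and 162 CPM, against 10.1, 75.8, 60.3, 8.86 and 0.673 CPM, and its paralog MEOX1 had a mean log2 ratio of 3.80 (SD 1.69).

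The mean log2 ratio was 3.63 for NRP2, a semaphorin and VEGF receptor of veins and lymphatics, 3.77 for STC1, 3.70 for DCC, 3.57 for the matrix protease gene ADAMTS5, 4.25 for SH3BGRL2, 3.93 for CLVS1 and 3.88 for ARFGEF3. On the lower side, NLGN1, which encodes the cell adhesion molecule neuroligin 1, had 0, 4.4, 177, 25.7 and 0 CPM in panel nuclei, against 414, 15.6, 327, 1068 and 1447 CPM in arterial-type nuclei of the same pigs, in the same order. BCO1, a carotenoid-cleaving enzyme, was undetected in 4 of the 5 pigs and had a mean log2 ratio of -4.83 (SD 1.96). LAMA1, a laminin chain, had -4.62 (SD 1.38), DCX -4.78 (SD 3.13), CLIP4 -4.30 (SD 1.66), ANO4 -3.72 (SD 1.08), ARHGAP20 -3.86, PPFIA2 -3.68, RGS6 -3.63 and PSTPIP2 -3.33. The SD of several of these ratios was above 2. Depth limits them, since 1 UMI in restricted nuclei was 3.21 CPM in control replicate 1 and 20.3 CPM in control replicate 2. In arterial-type nuclei of obese replicates 1 to 3, BCO1 had only 15, 7 and 18 UMIs and LAMA1 8, 3 and 5. Zeros in the panel nuclei of these pigs therefore do not show absence. On the higher side, MEOX1 in obese replicate 3 had 1 UMI in either type.

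**Figure D3:**
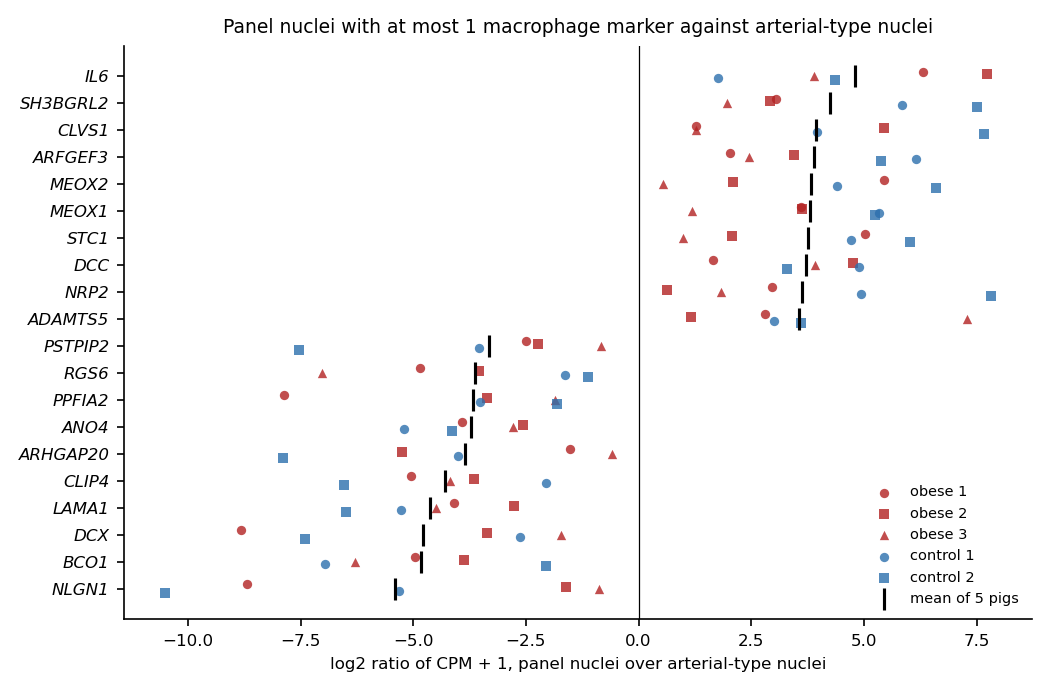
Log2 ratio of CPM + 1 (horizontal axis) of panel nuclei with at most 1 macrophage marker over arterial-type nuclei of the same pig, for the 10 genes of highest and the 10 of lowest mean ratio (5 pigs as points, mean as a bar). All points of a gene lie on the same side of 0, which was part of how the genes were chosen, and the spread of NLGN1 is the widest (SD 4.23).

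With all 281 panel nuclei, 243 of 3763 genes were higher and 257 lower in every pig. The 10 of highest mean log2 ratio were then NRP2 (3.64), SH3BGRL2 (3.52), RASGRP3 (3.39), COTL1 (3.25), ARFGEF3 (3.16), MEOX1 (3.12), KCNK13 (3.11), DCC (3.06), ABCA8 (3.01) and ADAM28 (2.99). NRP2, SH3BGRL2, ARFGEF3, MEOX1 and DCC were in both lists, while ADAM28, a protease gene of lymphocytes, and COTL1, an actin-binding protein of leukocytes, were in the list of all panel nuclei and not in that of the restricted ones. The 10 lowest were NLGN1 (-5.77), BCO1 (-4.87), CLIP4 (-4.05), LAMA1 (-4.04), TBX1 (-3.73), ANO4 (-3.71), PPFIA2 (-3.68), KCNB2 (-3.64), GATA2 (-3.34) and NWD2 (-3.31).

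Several capillary genes outside the rule were higher in panel than in arterial-type nuclei. Of 19 capillary genes in the files, 7 were higher in the restricted panel nuclei than in arterial-type nuclei in all 5 pigs and none was lower in all (median log2 ratio 0.92), beside 277 higher and 320 lower of the 3673 genes above. With all panel nuclei it was 3 of 19 (median 0.38). AQP1 had 112, 101, 99.6, 57.8 and 101 CPM in panel nuclei of obese replicates 1 to 3 and control replicates 1 and 2, against 4.02, 17.5, 4.31, 18.4 and 15.5 CPM in arterial-type nuclei. FABP4, a fatty acid binding protein of capillary endothelium, had a mean log2 ratio of 3.19, and the VEGF receptor gene FLT1 had 1.89.

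Of 16 venous genes, 3 were higher in all pigs, namely NRP2, the protease gene ADAMTS9 (2.27) and IL1R1 (1.52), and CPE, a carboxypeptidase, was lower in all (-1.78). With all panel nuclei 1 venous gene was higher in all pigs and 1 lower. EMCN was higher in 4 of the 5 pigs, with 77.5 CPM against 81.8 CPM in obese replicate 3. Of 21 arterial genes outside the rule, 1 was higher in all pigs (VEGFC, a growth factor gene, 2.54) and 1 lower (ELN, the elastin gene, -1.31), with a median of -0.04. With all panel nuclei 2 were higher and 2 lower (median -0.35). The arterial genes HEY2 and NOTCH1 did not keep 1 direction over the pigs, with mean log2 ratios of 0.01 and 0.19.

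Panel nuclei formed a larger share of the endothelial nuclei in every obese pig. They were 24.0% (17.5% to 31.6%), 43.3% (38.0% to 48.6%) and 23.5% (15% to 34.0%) of the endothelial-rule nuclei in obese replicates 1 to 3, against 11.2% (8.55% to 14.3%) and 5.74% (3.17% to 9.44%) in control replicates 1 and 2, with exact binomial intervals. Obese pigs averaged 30.3% ± 11.2 (SD, n = 3), control pigs 8.46% ± 3.85 (SD, n = 2). The exact two-sided permutation test gave p = 0.2, the smallest that 10 assignments of 3 and 2 pigs allow. The difference of the means was 21.8 percentage points, and 16.5 when nuclei with 2 or more macrophage markers were left out of both the panel and the endothelial nuclei.

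As a share of all captured nuclei the groups overlapped. Panel nuclei were 0.486%, 1.52% and 0.204% of all nuclei in obese replicates 1 to 3, against 0.456% and 0.246% in control replicates 1 and 2 (exact two-sided permutation p = 0.8). Without obese replicate 2 the difference of the means was -0.00579 percentage points, against 0.387 with it. The restricted nuclei were 0.407%, 0.524% and 0.183% of all nuclei in obese pigs, against 0.456% and 0.228% in control pigs (p = 1, exact). The arterial-type nuclei, in contrast, were 0.815%, 0.722% and 0.275% of all nuclei in obese pigs, against 2.56% and 3.11% in control pigs (p = 0.2, exact), and 40.3%, 20.5% and 31.8% of endothelial-rule nuclei in obese pigs, against 62.9% and 72.5% in control pigs. The larger share of panel nuclei within the endothelium thus stood beside a smaller share of arterial-type nuclei among captured nuclei. The share of panel nuclei among captured nuclei overlapped between the groups. What set the share within the endothelium was not tested. Nuclei were sorted on a DNA stain, and depth also differed, with a median of 5455.5, 4531 and 5610 UMIs in arterial-type nuclei of obese pigs, against 8411 and 7591 UMIs in control pigs. Its part in the shares was not tested.

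**Figure D4:**
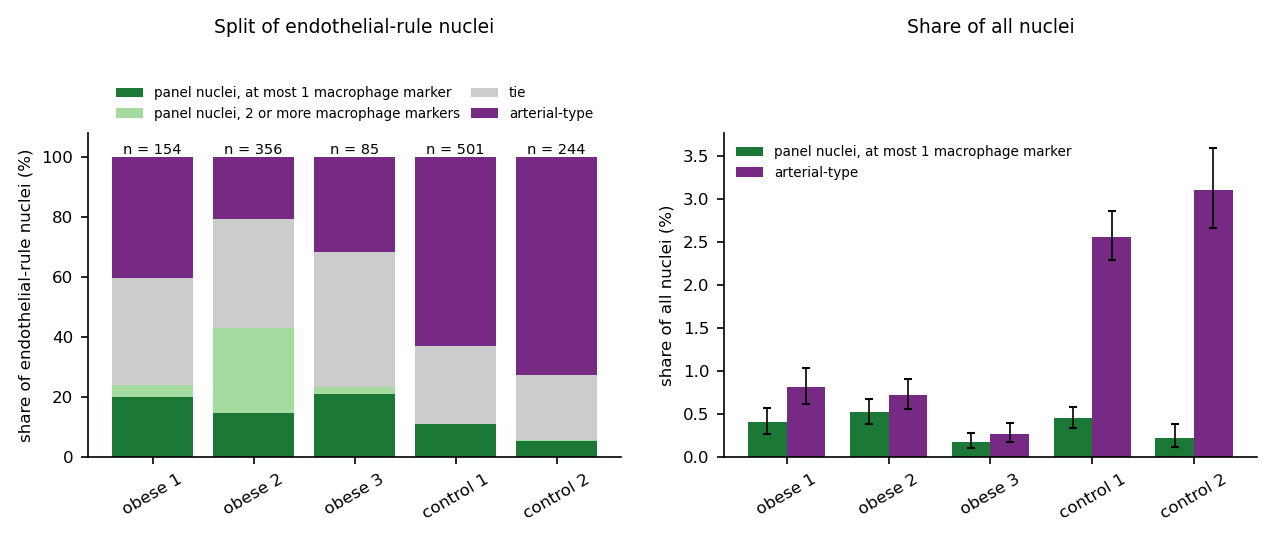
Left, split of the endothelial-rule nuclei of each pig (percent) into panel nuclei with at most 1 or with 2 or more macrophage markers, ties and arterial-type nuclei. Right, restricted panel nuclei and arterial-type nuclei as a share of all nuclei (percent, bars with exact binomial intervals), where arterial-type nuclei were 0.275% to 0.815% in obese and 2.56% to 3.11% in control pigs.

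The effect of the diet on expression was tested on UMIs summed per pig. Control replicate 2 had 14 panel nuclei, under the minimum of 20, so the comparison was of obese replicates 1 to 3 with control replicate 1, whose spread was assumed to be that of the obese pigs. No gene of 5714 tested passed an adjusted p of 0.05 in the quasi-likelihood test of edgeR, while 301 genes (5.27%) had an unadjusted p under 0.05. DESeq2 called 18 of 2723 genes (0.661%), all higher in obese pigs, and limma-voom called none. Without obese replicate 2, edgeR called 20 of 4060 genes, of which 19 were higher. With all 5 pigs, edgeR called none of 3626 genes (283 with an unadjusted p under 0.05, 7.8%). The restricted nuclei of all 5 pigs gave no call among 2359 genes (148 with an unadjusted p under 0.05, 6.27%), where DESeq2 called 2 and limma-voom none. The genes below are therefore given as values, and no gene is called changed by the diet in these nuclei.

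The genes of smallest p that were higher in obese pigs were SRGN, RGS1, RGS2, SHISA9 and SPP1. RGS2, a regulator of G protein signalling, had 188, 138 and 70.2 CPM in obese replicates 1 to 3 and no UMI in either control pig. With UMIs pooled by group, it was at least 17.1-fold higher against a floor of 3 counts over the control group. This bound does not hold for each pig, since obese replicate 2 held 1446366 UMIs, against 154036 and 99773 in obese replicates 1 and 3. With the restricted nuclei it had 134, 185 and 66.4 CPM in obese pigs and again none in control pigs. SRGN, the proteoglycan serglycin of leukocytes and endothelium, had 188, 221 and 160 CPM in obese pigs and none in control pigs (at least 26.4-fold higher when pooled likewise). In restricted nuclei it was lower, with 44.8, 30.8 and 99.6 CPM in obese pigs, again with none in control pigs. RGS1, a relative of RGS2 best known from leukocytes, had 117, 150 and 130 CPM in obese pigs, against 0 and 17.0 CPM in control pigs.

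SPP1, the macrophage marker osteopontin, had 227, 790 and 90.2 CPM in all panel nuclei of obese pigs and none in control pigs, but 11.2, 13.2 and 0 CPM in the restricted nuclei of obese pigs. SHISA9 had 130, 1165 and 321 CPM in obese pigs and none in control pigs, and 0, 13.2 and 277 CPM in the restricted nuclei of obese pigs. For SPP1 in 3 pigs and SHISA9 in 2, nearly all of the level thus lay in nuclei with 2 or more macrophage markers. SPP1 was itself counted among the markers that split the nuclei, so its fall was partly set by the restriction. For SPP1 this comparison therefore cannot tell which nuclei carried the difference between the groups.

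The genes of smallest p that were lower in obese pigs were EPHA7, HRH1, LTBP2, ADGRL4 and MEOX1. LTBP2, a matrix protein related to the binding proteins of TGF-beta, had 110, 29 and 20.05 CPM in obese pigs, against 703 and 322 CPM in control pigs. Its log2 difference was -3.71 in the fit of 4 pigs, where control replicate 1 was the only control. In the restricted nuclei LTBP2 had 134, 119 and 22.1 CPM, against 703 and 385 CPM (log2 -2.55, SE 0.62, all 5 pigs). These log2 values thus differ in the pigs used as well as in the nuclei. MEOX1 had 6.49, 6.22 and 10.02 CPM in obese pigs, against 125 and 204 CPM in control pigs, and 11.2, 35.2 and 11.1 CPM, against 125 and 243 CPM, with the restricted nuclei. Both genes kept the groups apart under either definition. HRH1, the histamine receptor through which venules become leaky, had 51.9, 37.3 and 30.1 CPM in obese pigs, against 376 and 102 CPM in control pigs. In the restricted nuclei the groups overlapped, at 44.8, 163 and 33.2 CPM against 376 and 20.3 CPM. ADGRL4, an adhesion receptor of endothelium, had 110, 39.4 and 40.1 CPM in obese pigs, against 543 and 153 CPM in control pigs, and overlapped likewise with the restricted nuclei. EPHA7, an ephrin receptor, had 13, 9.68 and 10.02 CPM in obese pigs, against 164 and 0 CPM in control pigs, so control replicate 1 alone stood out.

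**Figure D5:**
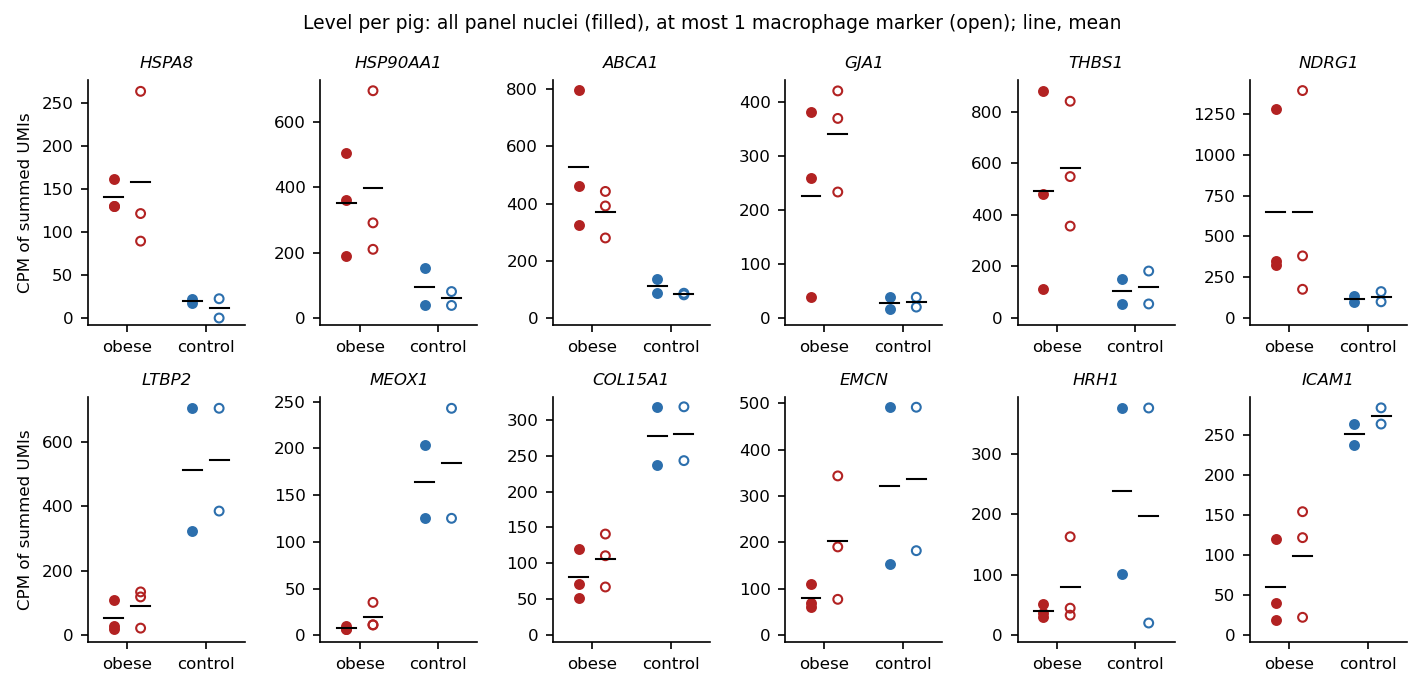
Level per pig (vertical axis, CPM of UMIs summed over nuclei) of 12 genes, with obese pigs on the left and control pigs on the right of each panel. Filled points are all panel nuclei, open points those with at most 1 macrophage marker, and lines are means. HSPA8, HSP90AA1 and ABCA1 kept every obese pig above both control pigs, and LTBP2, MEOX1, COL15A1 and ICAM1 kept every obese pig below both, while EMCN and HRH1 overlapped in the open points.

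The lists of pathway genes are described beside all genes tested. Over all 5714 genes the median log2 difference was 0.12 with all panel nuclei, and over the 2359 genes of the restricted nuclei it was 0.00. Among the 3626 genes tested in all 5 pigs, every obese pig was above both control pigs for 420 (11.6%) and below both for 496 (13.7%). The corresponding shares for the restricted nuclei were 12.6% and 12.9%. Each list is given for all panel nuclei in 4 pigs, where control replicate 1 is the only control, then for all panel nuclei in all 5 pigs and for the restricted nuclei in all 5 pigs. For most lists fewer genes were tested in the fits of 5 pigs. Over the 3626 genes tested in all 5 pigs the median log2 difference was 0.08. No member of any list was called.

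Immediate early and heat shock genes had mostly positive differences. Of 23 tested, 22 had a positive difference and 4 an unadjusted p under 0.05 (median log2 difference 1.97). With all 5 pigs 18 of 19 were positive (median 1.09). In the restricted nuclei 15 of 16 were positive and 8 had an unadjusted p under 0.05 (median 1.42). All obese pigs were above both control pigs for 7 of 16, namely FOS, FOSL2, ZFP36, KLF6, HSPA8, HSPH1 and HSP90AA1, and below them for none. HSPA8, a constitutive heat shock chaperone, had 162, 131 and 130 CPM in obese pigs, against 22.5 and 17.0 CPM in control pigs. In the restricted nuclei it had 89.6, 264 and 122 CPM, against 22.5 and 0 CPM.

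HSP90AA1, an inducible chaperone, had 291, 695 and 210 CPM in the restricted nuclei of obese pigs, against 38.5 and 81.0 CPM in control pigs (log2 2.97, SE 0.74, adjusted p = 0.48 in edgeR). ATF3, a stress-induced transcription factor, had 78.4, 189 and 575 CPM, against 16.1 and 81.0 CPM, and overlapped. In arterial-type nuclei 4 of 23 genes of this list rose, beside 0.906% of all genes tested there, ATF3 among them (log2 2.59, adjusted p = 0.046). For HSP90AA1, arterial-type nuclei had 105, 325 and 60.3 CPM in obese pigs, against 80.1 and 605 CPM in control pigs. The difference between the diet effects of the 2 types was 2.94 (SE 0.74, adjusted p = 0.13 in edgeR). It was fitted with all panel nuclei and not with the restricted ones.

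Cholesterol efflux genes, targets of the sterol sensor LXR, had a median log2 difference of 2.28 over 9 tested, and of 2.41 over 5 with all 5 pigs. ABCA1, which exports cholesterol, had 325, 796 and 461 CPM in obese pigs, against 86.7 and 136 CPM in control pigs. The restricted nuclei had 280, 392 and 443 CPM, against 86.7 and 81.0 CPM (log2 2.17, SE 0.57, adjusted p = 0.50 in edgeR). In arterial-type nuclei, ABCA1 rose (log2 2.01, adjusted p = 0.046), with 259, 399 and 172 CPM in obese pigs, against 71.9 and 68.0 CPM in control pigs. SMPDL3A, a phosphodiesterase gene of macrophages, had 77.9, 586 and 80.2 CPM in all panel nuclei of obese pigs and none in control pigs, but 11.2, 17.6 and 11.1 CPM in the restricted nuclei of obese pigs, where the macrophage marker sum was 44.8, 79.2 and 0 CPM. The restricted nuclei left 3 genes of the list to test, with a median of 0.99.

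Among hypoxia and glycolysis genes, 9 of 11 had a positive difference (median log2 difference 1.08), against 6 of 7 with all 5 pigs (median 0.79) and 4 of 5 in the restricted nuclei (median 0.87). NDRG1, a gene induced by hypoxia, had 381, 176 and 1394 CPM in the restricted nuclei of obese pigs, against 99.5 and 162 CPM in control pigs. HK2, a hexokinase, had 39.0, 336 and 70.2 CPM in all panel nuclei of obese pigs, against 9.63 and 0 CPM in control pigs, but no UMI in the restricted nuclei of obese replicate 2. PFKFB3, a regulator of glycolysis, had 22.4, 30.8 and 188 CPM in restricted nuclei of obese pigs, against 6.42 and 0 CPM in control pigs. NDRG1 and PFKFB3 thus kept the obese pigs above both control pigs in the restricted nuclei, and HK2 did not. PFKFB3 was not among the 5 genes tested there. In restricted nuclei 1 UMI was 11.2 CPM in obese replicate 1 and 20.3 CPM in control replicate 2, so its order rests on very few UMIs.

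Leukocyte adhesion and NF-kB genes, which arm the venule for leukocyte exit, had a positive difference in 12 of 14 (median log2 difference 0.88). With all 5 pigs 5 of 9 were positive (median 0.00), and in the restricted nuclei 6 of 7 (median 0.45). ICAM1, a ligand of leukocyte integrins, went the other way, with 19.5, 40.1 and 120 CPM in obese pigs, against 263 and 238 CPM in control pigs (unadjusted p = 0.048). The restricted nuclei had 22.4, 154 and 122 CPM, against 263 and 284 CPM. VCAM1 had 0, 83.6 and 299 CPM in the restricted nuclei of obese pigs, against 12.8 and 243 CPM in control pigs, and overlapped. ICAM1 and VCAM1 thus had no common order. SOD2, a mitochondrial enzyme induced by NF-kB, had 13, 36.6 and 50.1 CPM in obese pigs, against 3.21 and 17.0 CPM in control pigs.

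Genes of IL6, STAT3 and prostaglandin signalling had a positive difference in 9 of 11 (median log2 difference 1.14), in 4 of 5 with all 5 pigs (median 0.69) and in 3 of 5 in the restricted nuclei (median 0.67). PTGS2, the inducible cyclooxygenase, had 56.0, 52.8 and 1184 CPM in the restricted nuclei of obese pigs, against 6.42 and 0 CPM in control pigs, so obese replicate 3 was far above the rest. OSMR, the oncostatin M receptor, had 202, 83.6 and 111 CPM, against 22.5 and 20.3 CPM. IL6 itself had 78.4, 211 and 77.5 CPM, against 9.63 and 60.8 CPM, and with all panel nuclei 45.4, 33.2 and 70.2 CPM, against 9.63 and 50.9 CPM, where the groups overlapped. With all panel nuclei of the 5 pigs, none of the 5 genes tested in this list had every obese pig above both control pigs. Of the interferon and antigen presentation genes, 4 of 9 were positive (median -0.10), 3 of 7 with all 5 pigs (median -0.47) and 2 of 3 in the restricted nuclei (median 0.72). MX2, an antiviral GTPase, had 146, 66.0 and 476 CPM in the restricted nuclei of obese pigs, against 77.1 and 243 CPM in control pigs, and overlapped. The only complement genes tested, C3 and C5AR1, had 17.6 CPM and no UMI in the restricted nuclei of obese replicate 2, against 146 and 136 CPM with all its panel nuclei.

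Capillary genes had mostly negative differences. Of 11 capillary genes tested, 3 had a positive difference (median log2 difference -1.71), none of 6 did with all 5 pigs (median -0.82), and of 5 in the restricted nuclei 2 did (median -0.75). COL15A1 had 71.4, 51.9 and 120 CPM in obese pigs, against 318 and 238 CPM in control pigs, and with the restricted nuclei 67.2, 141 and 111 CPM, against 318 and 243 CPM. KDR, the main VEGF receptor, had 22.4, 35.2 and 0 CPM in the restricted nuclei of obese pigs, against 96.3 and 0 CPM in control pigs. Of 11 venous genes tested, 5 were positive (median -0.47), 3 with all 5 pigs (median -0.30) and 4 in the restricted nuclei (median -0.51).

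EMCN had 110, 61.5 and 70.2 CPM in obese pigs, against 491 and 153 CPM in control pigs, but 190, 343 and 77.5 CPM, against 491 and 182 CPM, in the restricted nuclei, where the groups overlapped. The matrix protein gene POSTN had 22.4, 123 and 11.1 CPM in the restricted nuclei of obese pigs, against 151 and 101 CPM in control pigs. Of 13 arterial genes outside the rule, 4 were positive (median -0.69), of 11 with all 5 pigs 5 were (median -0.27), and of 9 in the restricted nuclei 6 were (median 0.29). VEGFC, a lymphangiogenic growth factor, had 784, 475 and 266 CPM in the restricted nuclei of obese pigs, against 99.5 and 40.5 CPM in control pigs (log2 2.68, SE 0.66, adjusted p = 0.48 in edgeR). With all panel nuclei of the 5 pigs, SULF1 and NEBL were the only arterial genes of 11 tested with every obese pig above both control pigs.

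Among junction and permeability genes 3 of 18 were positive with all panel nuclei (median log2 difference -0.79), 4 of 13 with all 5 pigs (median -0.40), and 8 of 13 with the restricted nuclei (median 0.13). The median thus differed in sign between all panel nuclei and the restricted ones in the same 5 pigs. GJA1, the gap junction protein connexin 43, had 370, 233 and 420 CPM in the restricted nuclei of obese pigs, against 38.5 and 20.3 CPM in control pigs (log2 3.34, SE 0.66, unadjusted p = 0.00031, adjusted p = 0.48 in edgeR), and was above both in 3 of 3 obese pigs. With all panel nuclei obese replicate 2 had 38.7 CPM, close to control replicate 1. EHD2, a protein of caveolae, had 19.5, 14.5 and 20.05 CPM in all panel nuclei of obese pigs, against 148 and 50.9 CPM in control pigs. ESAM, an adhesion molecule of endothelial junctions, had 7 UMIs or fewer in each obese pig, against 22 and 1 in control pigs.

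Coagulation genes were positive in 5 of 10 (median log2 difference 0.47), but in 2 of 8 with all 5 pigs (median -0.84) and in 2 of 5 in the restricted nuclei (median -0.26). The sign of the median thus differed between the fits of 4 and of 5 pigs, which also tested different numbers of genes. THBS1, the matrix protein thrombospondin 1, had 549, 357 and 841 CPM in the restricted nuclei of obese pigs, against 54.6 and 182 CPM in control pigs. MMRN2, a matrix protein of vessels, had 78.4, 52.8 and 99.6 CPM, against 183 and 101 CPM. In the restricted nuclei THBS1 thus stood above both control pigs in every obese pig and MMRN2 below both. With all panel nuclei of the 5 pigs, none of the 8 coagulation genes tested had every obese pig above both control pigs. Only F8 and PROS1 had every obese pig below both.

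Vasoactive genes were positive in 8 of 13 (median log2 difference 0.41), but in 3 of 8 with all 5 pigs (median -0.99) and in 2 of 8 in the restricted nuclei (median -0.50). Here too the sign differed between the fits of 4 and of 5 pigs. NOSTRIN, which moves the nitric oxide synthase of endothelium, had 112, 57.2 and 33.2 CPM in the restricted nuclei of obese pigs, against 247 and 162 CPM in control pigs. NOS3, that synthase, had 190, 123 and 122 CPM, against 215 and 101 CPM, and overlapped. SLC7A2, an arginine transporter, had 78.4, 154 and 1516 CPM, against 83.5 and 101 CPM, led by obese replicate 3. Of 9 shear stress and KLF genes 1 was positive (median -0.72), with all 5 pigs 1 of 5 (median -0.56), and in the restricted nuclei 2 of 3 (median 0.32). KLF3 had 11.2, 48.4 and 33.2 CPM in the restricted nuclei of obese pigs, against 206 and 40.5 CPM in control pigs, and fell in arterial-type nuclei (log2 -3.07, adjusted p = 0.021). The difference between the types, fitted with all panel nuclei, was 1.73 (SE 0.80, adjusted p = 0.59).

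Phosphodiesterase genes, whose products degrade cyclic nucleotides, were positive in 8 of 13 (median log2 difference 0.59), in 7 of 13 with all 5 pigs (median 0.12) and in 6 of 10 in the restricted nuclei (median 0.66). PDE4B had 146, 114 and 454 CPM in the restricted nuclei of obese pigs, against 45 and 101 CPM in control pigs. It rose in arterial-type nuclei (log2 2.83, adjusted p = 0.042). The difference between the types, fitted with all panel nuclei, was -0.84 (SE 0.80, adjusted p = 0.93). ERK feedback genes were positive in 5 of 5 (median 0.31), in 3 of 4 with all 5 pigs (median 0.29) and in 3 of 4 in the restricted nuclei (median 0.62), where DUSP5, a phosphatase of ERK, had 78.4, 79.2 and 77.5 CPM in the restricted nuclei of obese pigs, against 16.1 and 40.5 CPM in control pigs. Glucocorticoid response genes were positive in 8 of 10 (median 0.32), in 6 of 8 with all 5 pigs (median 0.35) and in 3 of 6 in the restricted nuclei (median 0.05), with SGK1, a kinase, at 146, 8.80 and 33.2 CPM in obese pigs, against 22.5 and 0 CPM.

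Matrix and growth factor lists had medians between -0.63 and 0.59. Basement membrane genes were positive in 7 of 16 (median log2 difference -0.50), TGF-beta and BMP genes in 12 of 19 (0.49), mesenchymal transition genes in 2 of 10 (-0.63), Notch genes in 3 of 10 (-0.47) and VEGF and angiopoietin genes in 5 of 8 (0.59). With all 5 pigs these medians were -0.45, 0.42, -0.76, -0.40 and 0.14. In the restricted nuclei they were -0.20, -0.18, -0.09, -0.23 and 0.02. COL3A1, a fibrillar collagen, had 33.6, 83.6 and 44.3 CPM in the restricted nuclei of obese pigs, against 202 and 182 CPM in control pigs, and the fibroblast marker sum of the panel nuclei, in which COL3A1 is counted, was also lower in all obese pigs. Its part in that difference was not tested. Of the fatty acid genes 10 of 14 were positive (median 0.35), 3 of 5 with all 5 pigs (median 0.37) and 3 of 4 in the restricted nuclei (median 0.67). LPL, lipoprotein lipase, had 26, 450 and 30.1 CPM in all panel nuclei of obese pigs, but 0, 8.80 and 11.1 CPM in the restricted ones, against 3.21 and 0 CPM in control pigs. Only 4 cholesterol synthesis genes, 2 complement genes and 1 cell cycle gene were tested.

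The difference between the diet effects of panel and arterial-type nuclei was tested within pigs. No gene of 7229 passed an adjusted p of 0.05 in edgeR, with 580 (8.02%) at an unadjusted p under 0.05, and none of 5728 with the restricted nuclei (454 at an unadjusted p under 0.05). Leaving out control replicate 2 gave 12 calls and control replicate 1 gave 3. For the restricted nuclei, leaving out obese replicate 3 gave 15 and control replicate 1 gave 1. In their own fit the arterial-type nuclei had 120 called genes of 6619 (1.81%), 60 (0.906%) in each direction. Those with at most 1 macrophage marker had 201 called genes of 5566, with 117 higher and 84 lower in obese pigs.

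The interaction genes of smallest p are given as values. TMCC3, a membrane protein gene, had 922, 1081 and 491 CPM in panel nuclei of obese pigs, against 244 and 204 CPM in control pigs, while arterial-type nuclei had 308, 418 and 383 CPM, against 735 and 863 CPM (difference 3.06, SE 0.62, adjusted p = 0.086). SMAD6, an inhibitor of BMP signalling, had 227, 109 and 281 CPM in panel nuclei of obese pigs, against 116 and 84.9 CPM in control pigs, and fell in arterial-type nuclei, with 225, 148 and 121 CPM against 810 and 538 CPM (log2 -1.98, adjusted p = 0.046). TMCC3 kept its order in the restricted nuclei, with 627, 392 and 520 CPM in obese pigs, against 244 and 182 CPM in control pigs. SRGN, given above, had 90.5, 70.0 and 21.5 CPM in arterial-type nuclei of obese pigs, against 40.8 and 37.0 CPM in control pigs.

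In the opposite direction, P3H2, a collagen prolyl hydroxylase, had 64.9, 91.3 and 140 CPM in panel nuclei of obese pigs, against 321 and 187 CPM in control pigs. It rose in arterial-type nuclei, with 173, 177 and 172 CPM against 30.8 and 26.3 CPM (log2 2.63, adjusted p = 0.027). The difference between the types was -3.89 (SE 0.70, adjusted p = 0.084). With the restricted nuclei P3H2 had 67.2, 255 and 144 CPM in obese pigs, against 321 and 223 CPM in control pigs, and the groups overlapped. SYNPO2, an actin-binding protein of smooth muscle, had 279, 119 and 80.2 CPM in panel nuclei of obese pigs, against 716 and 730 CPM in control pigs, and 818, 916 and 1210 CPM in arterial-type nuclei of obese pigs, against 405 and 288 CPM in control pigs. The smooth muscle marker sum of arterial-type nuclei moved the same way, with 3094, 3322 and 3588 CPM in obese pigs, against 1794 and 1485 CPM in control pigs, and its part in SYNPO2 was not tested. SH3BGRL2 had 71.4, 20.7 and 140 CPM in panel nuclei of obese pigs, against 279 and 255 CPM in control pigs, and 14.1, 15.6 and 38.8 CPM in arterial-type nuclei of obese pigs, against 3.90 and 0.673 CPM in control pigs.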

How the data were processed

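Raw UMI counts per gene and barcode were used as deposited by the authors, 1 matrix per pig. Per the submitters' processing notes, Cell Ranger 5.0 and Seurat 5.0 were used with genome build Sscrofa11, whereas the file headers give Cell Ranger 7.1.0. The files held 45580 barcodes and 35670 features, of which 17508 carried a symbol and 223 more were named from a RefSeq table. The members and gene lists were chosen with earlier results of these data known.

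UMIs were summed per pig and tested with edgeR 4.0.16 in R 4.3.3 (quasi-likelihood F-test, TMM factors, filterByExpr, Benjamini-Hochberg adjustment over all genes tested, 0.05), with interactions within pigs. DESeq2 1.42.0, limma 3.58.1 (voom), other scalings, no filter, other definitions of the nuclei and leaving out each pig were alternatives, and the tests were checked on simulated data. Rule genes stayed in the fits but were given no test. Levels were compared between types as log2 ratios of CPM plus 1, without a test. Shares had exact binomial intervals at 95% and an exact permutation test. Intervals and floors cover counting error only.

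Scrublet in scanpy 1.11.5 marked 2 doublets in all, so doublets were kept, and their removal at the expected rate was an alternative. Each pig was 1 replicate. Named genes were the genes of smallest p in each direction (5 for the diet effect, 3 for the interaction), up to 3 per list, and the 10 of highest and lowest ratio against arterial-type nuclei. Others were named after their values were seen. Replicate numbers were not taken to pair the pigs, and correlations of same-numbered pigs were within 0.05 of 0. With 2 control pigs the deviations from their mean mirror each other, so these correlations cannot tell whether same-numbered pigs shared a batch. Some genes are not reported here.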

Additional observations from a re-analysis of the deposited data

How the results depend on the processing

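The count of genes called for the diet effect was 0 with other size factors, limma-voom, a mitochondrial limit, doublet removal or at least 4 endothelial genes. It was 60 of 19522 with no filter on low counts, 18 of 2723 with DESeq2, and 0 to 20 on leaving out 1 pig. With all 5 pigs it was 39 of 3626 with a replicate block, 4 of 1080 in nuclei without PTPRC and with at most 1 smooth muscle marker, and 1 of 290 after thinning to 1000 UMIs. The restricted nuclei gave 2 calls with DESeq2 and 19 of 16703 with no filter. For the interaction it was 50 with no filter, 1 after doublet removal, 1 with at least 4 endothelial genes, 0 to 12 on leaving out 1 pig, and 0 to 15 with the restricted nuclei. The cause of these changes was not tested. The difference in share among endothelial nuclei was 7.48 to 29.3 percentage points over all settings, and 15.3 to 25.2 on leaving out 1 pig. The difference in share of all nuclei was -0.00579 to 0.654 on leaving out 1 pig, and -0.0424 to 0.186 where nuclei with 2 or more macrophage markers were also left out of both counts (-0.0381 without obese replicate 2). The block could not be fitted in the 4 pigs of the reported fit. With doublet removal or at least 4 endothelial genes, obese replicate 3 also fell under 20 panel nuclei. Those fits held only obese replicates 1 and 2 and control replicate 1. With all 5 pigs these settings gave 0 calls of 2886 and of 2536 genes. Depth limits every gene value, since control replicate 2 held 58919 UMIs in panel nuclei.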
